A study of Mus musculus with 24 samples.

Results

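The members are the 1 Mb bins that hold 7 genes of the DNA damage response, H2ax, Atm, Mdc1, Rnf168, Trp53bp1, Brca1 and Prkdc. Each bin was chosen as the one that contains the midpoint of the gene in mm10, so 7 of 2645 bins on chromosomes 1 to 19 and X are described. The rule uses no measured value. A DNA double-strand break leads the kinases encoded by Atm and Prkdc to phosphorylate the tail of the histone variant H2AX in the surrounding chromatin, and the phosphorylated form is γH2AX, written gH2AX in the labels and below. The adaptor protein made from Mdc1 binds gH2AX, the ubiquitin ligase RNF168 modifies the chromatin there, and 53BP1, the product of Trp53bp1, and BRCA1 are then recruited. 53BP1 favours end joining, in which the DNA-dependent protein kinase encoded by Prkdc acts, and BRCA1 favours homologous recombination. The measurement concerns histone and DNA reads at the bins of these genes, not the amount of the proteins.

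Chromatin immunoprecipitation with sequencing was made with antibodies against gH2AX and against H2AX, with input DNA beside it, in mouse cells named TTF in the labels, which do not explain the abbreviation, all female and of the strain C57BL6/CAST hybrid. SIRT7 is a chromatin deacylase, and the genotypes were SIRT7-KO and WT, with gH2AX, H2AX and input in each. A second set held SIRT7-KO clones c22 and c9 carrying SIRT7-WT, SIRT7-HY clones c5 and c7 (HY is not explained in the labels) and the clones c22 and c9 themselves, with gH2AX and H2AX. All 24 samples are labelled as X-rayed (5 Gy, then 30 minutes to recover), so no group without irradiation is labelled, and there are 12 groups of 2. Each clone group rests on 2 clones. In the first count table the 2 columns of each KO or WT group end in NT and Xray, whereas the labels number them, so the columns are called the NT-named and the Xray-named library and were taken as 2 replicates of the labelled group. Separate cultures are not stated for the KO or WT replicates, and the p-values of those cells then rest on a spread between libraries that may be technical. A DNA assay holds no marker transcripts, so the cell type could not be checked, and a deletion within Sirt7 would not be resolved in a 1 Mb bin.

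Libraries of the KO and WT table held 170013624 to 268180310 reads, with a median of 54789 to 88323 per bin, and clone libraries held 70349148 to 155364952 reads, with a median of 24581 to 54268. The spread between libraries, as the common biological coefficient of variation, was 3.23% in the KO and WT table and 11.4% in the clones. The second table also holds WT cells, of which replicate 2 holds, in every assay, the same count as the NT-named library in 2645 of 2645 bins, whereas replicate 1 was a further WT library. Values below are CPM, the counts of a library scaled to its size, and differences are log2 values from edgeR's quasi-likelihood test, with their standard error (SE) and with p adjusted by the Benjamini-Hochberg method over 2582 tested bins. A bin is called where the adjusted p is under 0.05.

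Every gene lay whole within its bin, but filled little of it, and the bins differed in how many other genes they hold. H2ax itself spans 1.363 kb on chromosome 9 (44334715 to 44336077), which is 0.136% of its bin, and the bin 44000001 to 45000000 holds 38 protein-coding genes, the fourth most of 125 bins on the chromosome, where the median is 7. Atm (53437122 to 53536828) lies on the same chromosome in the bin 53000001 to 54000000, with 12 protein-coding genes. The Mdc1 bin on chromosome 17 (35000001 to 36000000, gene at 35841495 to 35859670) holds 61, more than any of the other bins of that chromosome, and covers part of the major histocompatibility complex. Rnf168 (32277461 to 32301442) and Prkdc (15637444 to 15842239) lie on chromosome 16. Their bins, 32000001 to 33000000 and 15000001 to 16000000, hold 23 and 5 protein-coding genes against a chromosome median of 4. The Trp53bp1 bin on chromosome 2 (121000001 to 122000000, gene at 121194835 to 121296354) holds 26, and the Brca1 bin on chromosome 11 (101000001 to 102000000, gene at 101488761 to 101551955) holds 43. Only Prkdc, with 20.5% of its bin, and Trp53bp1, with 10.2%, fill more than 10% of it, so a value below is that of a gene neighbourhood and not of a gene body or promoter.

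The phosphorylated histone was examined first against input. In KO cells the H2ax, Mdc1 and Brca1 bins were higher in gH2AX than in input, the Prkdc bin was lower, and the Atm, Rnf168 and Trp53bp1 bins did not pass the test. The H2ax bin had 328 CPM in the NT-named and 373 CPM in the Xray-named gH2AX library of KO cells, against 306 and 304 CPM in the KO inputs. Both gH2AX libraries were above both inputs, an order that was not counted over all bins. The log2 difference was 0.20 (SE 0.0644, adjusted p = 0.0244), and the bin stood at place 8 of 123 tested bins of chromosome 9, whose median was 0.02. The Mdc1 bin, with 496 and 547 CPM in gH2AX of KO cells against 447 and 444 CPM in input, differed by 0.23 (SE 0.0505, adjusted p = 0.00602) and stood at place 12 of 92. The Brca1 bin had 472 and 518 CPM in gH2AX of KO cells and 439 and 426 CPM in input, a difference of 0.20 (SE 0.0469, adjusted p = 0.00791) at place 21 of 119. In the Prkdc bin, gH2AX held 409 and 417 CPM in KO cells and input 439 and 431 CPM. That difference of -0.08 (SE 0.0283, adjusted p = 0.0406) was close to the median of chromosome 16, which was -0.09. The KO values of the other members were -0.05 for Atm (adjusted p = 0.103), 0.07 for Rnf168 (adjusted p = 0.202) and 0.03 for Trp53bp1 (adjusted p = 0.502). Of the 7 members, 3 were called higher and 1 lower, where 25.3% of all bins were higher and 36.3% were lower. The call of the Prkdc bin was lost without any 1 of the 4 libraries involved (adjusted p between 0.0797 and 0.191) and also with DESeq2's size factors (adjusted p = 0.14), the autosomal total (adjusted p = 0.0524), DESeq2 (adjusted p = 0.0834) and the compared groups only (adjusted p = 0.237). Rnf168 passed without the NT-named gH2AX library (0.13, adjusted p = 0.0118). The call of the H2ax bin was lost without the Xray-named gH2AX library (0.12, adjusted p = 0.0964) and without either KO input (0.20 and 0.19, adjusted p = 0.0812 and 0.0982), and that of the Brca1 bin without the Xray-named KO input (0.17, adjusted p = 0.0574).

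In WT cells the H2ax, Mdc1 and Brca1 bins were again higher in gH2AX than in input, and the Trp53bp1 bin passed as well. The H2ax bin had 372 CPM in the NT-named and 425 CPM in the Xray-named gH2AX library of WT cells, against 329 and 327 CPM in the WT inputs. Its log2 difference was 0.28 (SE 0.0642, adjusted p = 0.00432), place 6 of 123. The Mdc1 bin differed by 0.31 (SE 0.0504, adjusted p = 0.00183), with 573 and 628 CPM in gH2AX against 486 and 482 CPM in input. The Brca1 bin differed by 0.27 (SE 0.0469, adjusted p = 0.00204), with 357 and 387 CPM in gH2AX against 309.6 and 308 CPM in input. The Trp53bp1 bin passed the test in WT cells at 0.12 (SE 0.0395, adjusted p = 0.0257), with 308 and 327 CPM in gH2AX against 297 and 290.4 CPM in input. Without the Xray-named WT gH2AX library its value was 0.09 (adjusted p = 0.115), without the NT-named input 0.13 (adjusted p = 0.0584) and without the Xray-named input 0.10 (adjusted p = 0.111). With the autosomal total it was 0.09 (adjusted p = 0.11). The Rnf168 bin stood at 0.10 (adjusted p = 0.0551), and passed without the NT-named gH2AX library (0.15, adjusted p = 0.0211) and with DESeq2 (0.10, adjusted p = 0.0404). Atm stood at -0.02 (adjusted p = 0.393) and Prkdc at -0.05 (adjusted p = 0.152). Among the 7 bins, 4 were called higher and 0 lower in WT cells, where 34.6% of all bins were higher and 35.3% were lower. The split of all calls depends on the scaling: of the gH2AX calls against input, 41.1% were higher in KO and 49.5% in WT cells with the main scaling, 51.1% in KO cells with DESeq2's size factors, and 37.9% in WT cells with the autosomal total. Within KO or WT cells, no member value over input changed sign between the scalings.

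The H2ax, Mdc1 and Brca1 bins were higher, and the Prkdc bin lower, in total H2AX than in input. In KO cells the H2ax bin held 354 and 356 CPM in H2AX against 306 and 304 CPM in input, a log2 difference of 0.22 (SE 0.0643, adjusted p = 0.0201), at place 8 of 123 on its chromosome. Mdc1 differed by 0.19 (SE 0.0504, adjusted p = 0.0128), with 508 CPM in each H2AX library of KO cells. Brca1 differed by 0.16 (SE 0.0469, adjusted p = 0.0199), with 485 and 481 CPM in H2AX. In these bins both H2AX libraries were above both inputs, an order that was not counted over all bins. The Prkdc bin stood at -0.13 (SE 0.0283, adjusted p = 0.0064), with 403 and 395 CPM in H2AX against 439 and 431 CPM in input of KO cells. Rnf168 stood at 0.11 (adjusted p = 0.0676) and passed with DESeq2's size factors (0.13, adjusted p = 0.0364), DESeq2 (0.13, adjusted p = 0.00985) and the compared groups only (0.13, adjusted p = 1.13e-12). The last of these fits called 2071 bins over the genome, against 1280 in the main fit. Atm stood at -0.02 (adjusted p = 0.448) and Trp53bp1 at 0.01 (adjusted p = 0.890). In all, 3 were called higher and 1 lower, where 21.4% of all bins were higher and 28.2% were lower. The calls of H2ax, Mdc1 and Brca1 were lost whenever any 1 of the 4 libraries was left out, although the values moved only between 0.21 and 0.22 for H2ax, 0.18 and 0.20 for Mdc1 and 0.14 and 0.18 for Brca1. The Prkdc call was lost without the Xray-named H2AX library and without the NT-named input (-0.11 each, adjusted p = 0.0611 and 0.0525).

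In WT cells the H2ax bin held 391 and 395 CPM in H2AX against 329 and 327 CPM in input, a log2 difference of 0.26 (SE 0.0642, adjusted p = 0.00752). Mdc1 differed by 0.25 (SE 0.0504, adjusted p = 0.00312), Brca1 by 0.19 (SE 0.047, adjusted p = 0.00745) and Rnf168 by 0.12 (SE 0.0438, adjusted p = 0.0436). The Prkdc bin was again lower, at -0.16 (SE 0.0283, adjusted p = 0.00148), with 353 and 338 CPM in H2AX against 389.9 and 383 CPM in input. Its place was 73 of 96 on chromosome 16, where the median was -0.07 and the Rnf168 bin stood at place 22. Atm at -0.03 (adjusted p = 0.273) and Trp53bp1 at 0.05 (adjusted p = 0.256) did not pass. Of the 7 members, 4 were called higher and 1 lower, where 30.5% of all bins were higher and 25.9% were lower. The Rnf168 call was lost without any 1 of the 4 libraries (adjusted p between 0.0854 and 0.187), and also with DESeq2's size factors (0.11, adjusted p = 0.0639) and with the autosomal total (0.10, adjusted p = 0.131). Of the H2AX calls against input over all bins, 43.1% were higher in KO cells and 54.1% in WT cells, whereas DESeq2's size factors gave 54.1% in KO cells and the autosomal total 39.8% in WT cells.

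**Figure D1:**
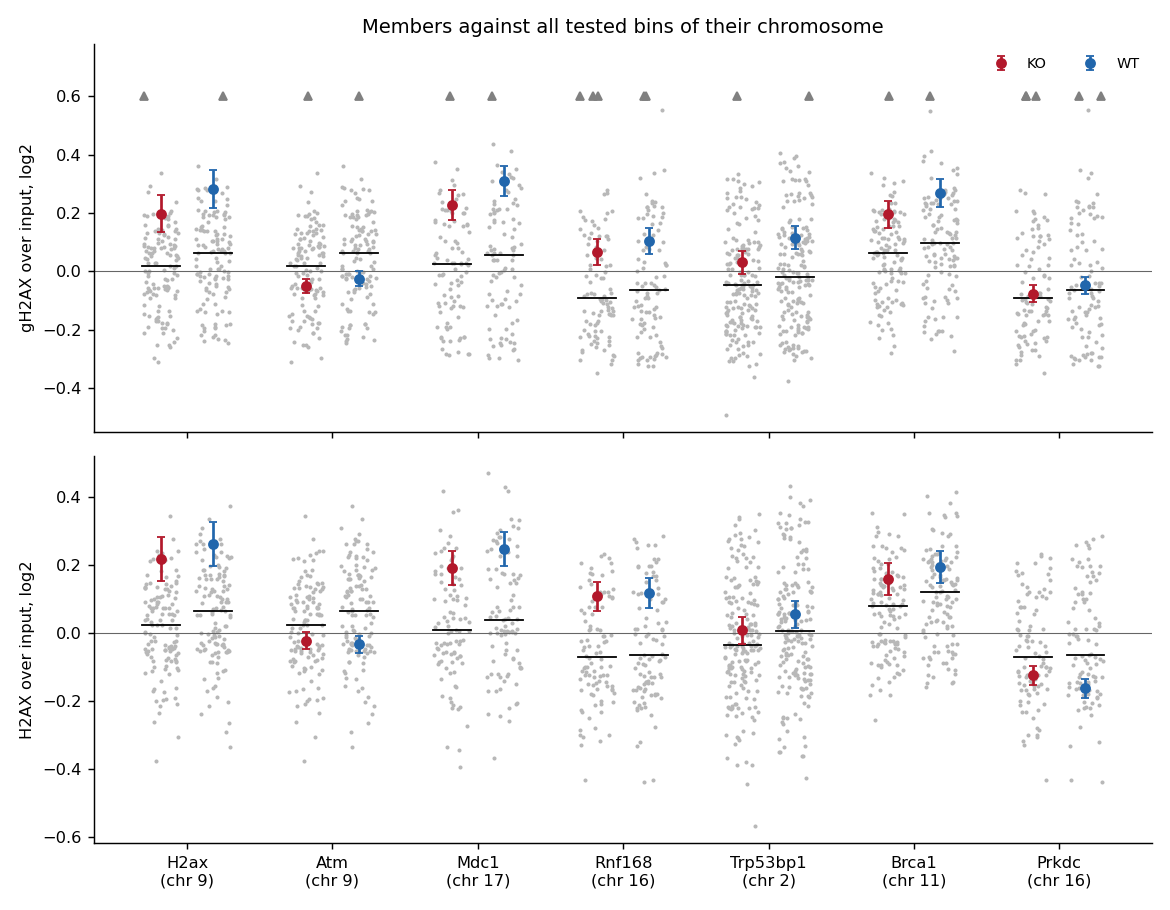
The log2 difference of gH2AX (top) and H2AX (bottom) from input for each member in KO (red) and WT (blue) cells, with bars for 1 standard error; grey points are all tested bins of the same chromosome, the black line is their median, and triangles at 0.6 stand for the 13 values above that limit, with the bins of chromosomes 9 and 16 drawn once for each of their 2 members. The H2ax, Mdc1 and Brca1 bins stand above the median of their chromosome in both assays and both genotypes, and the Atm bin stands below it.

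The third WT library, which is WT replicate 1 of the second table, was read against its own input as a description without a test. Its log2 ratio of gH2AX to input was 0.32 for H2ax, 0.44 for Mdc1, 0.37 for Brca1, 0.18 for Trp53bp1, 0.14 for Rnf168, -0.06 for Atm and -0.17 for Prkdc. Its H2AX ratio to input was 0.45 for H2ax, 0.47 for Mdc1, 0.36 for Brca1, 0.24 for Rnf168, 0.13 for Trp53bp1, -0.03 for Atm and -0.30 for Prkdc. In that library H2ax, Mdc1 and Brca1 thus led in both assays and Prkdc was lowest. Beside these values stands the number of genes: the 5 members highest over input in WT gH2AX are the 5 whose bins hold 23 or more protein-coding genes, and Atm and Prkdc, with 12 and 5, are the others. Over all 2582 bins the number of protein-coding genes and the gH2AX difference from input had a Spearman rho of 0.62 in KO cells and 0.66 in WT cells, and for H2AX rho was 0.54 in KO cells and 0.55 in WT cells. These are descriptions over bins of the same libraries, and bins are not independent replicates. The part of gene number in the members' values was not tested.

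Levels differed between KO and WT cells already in input DNA. The Brca1 bin was higher in KO cells, with 439 and 426 CPM in the KO inputs against 309.6 and 308 CPM in the WT inputs, and the log2 difference was 0.49 (SE 0.047, adjusted p = 2.63e-05), or 40.1% more. Both chromosome 16 bins were higher as well. Rnf168 held 473 and 460.3 CPM in the KO inputs against 405 and 393 CPM in the WT inputs, a difference of 0.23 (SE 0.0438, adjusted p = 0.00141). Prkdc held 439 and 431 CPM in the KO inputs against 389.9 and 383 CPM in the WT inputs, a difference of 0.17 (SE 0.0283, adjusted p = 0.000584). The Atm bin was lower in KO cells, with 293 and 288 CPM against 323 and 321 CPM in WT cells, a difference of -0.15 (SE 0.0249, adjusted p = 0.000642). H2ax at -0.10 (adjusted p = 0.212), Mdc1 at -0.12 (adjusted p = 0.0695) and Trp53bp1 at 0.07 (adjusted p = 0.166) did not pass. Counted over the 7 bins, 3 were called higher and 1 lower, where 32.1% of all bins were higher and 25.4% were lower. The Mdc1 bin was called lower with DESeq2's size factors (-0.14, adjusted p = 0.0429) and with the autosomal total (-0.15, adjusted p = 0.043). When the input libraries were fitted alone, Mdc1 (-0.12, adjusted p = 1.3e-07), H2ax (-0.10, adjusted p = 4.7e-07) and Trp53bp1 (0.07, adjusted p = 0.000316) passed too. That fit called 2058 bins over the genome, against 1484 in the main fit, so most bins passed in it.

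In both immunoprecipitated assays the Brca1, Rnf168 and Prkdc bins were higher in KO cells and the Atm and Mdc1 bins were lower. In gH2AX the Brca1 bin held 472 and 518 CPM in KO cells against 357 and 387 CPM in WT cells. The groups did not overlap, an order that was not counted over all bins. The log2 difference was 0.41 (SE 0.0469, adjusted p = 6.48e-05). Rnf168 was higher by 0.19 (SE 0.0438, adjusted p = 0.00396), with 467 and 511 CPM in KO cells against 416 and 441 CPM in WT cells, and Prkdc by 0.14 (SE 0.0283, adjusted p = 0.00168), with 409 and 417 CPM in KO cells against 371 and 377 CPM in WT cells. Atm was lower, at -0.17 (SE 0.025, adjusted p = 0.000231), with 276 and 285 CPM in KO cells against 311 and 322 CPM in WT cells. Mdc1 was lower, at -0.20 (SE 0.0504, adjusted p = 0.00607), with 496 and 547 CPM in KO cells against 573 and 628 CPM in WT cells. The H2ax bin was lower as well, at -0.19 (SE 0.0642, adjusted p = 0.0288), with 328 and 373 CPM in KO cells against 372 and 425 CPM in WT cells, and here the Xray-named KO library and the NT-named WT library lay within 1 CPM of each other. Without the NT-named KO library the H2ax value was -0.10 (adjusted p = 0.179), and without the Xray-named WT library -0.09 (adjusted p = 0.207). In the gH2AX libraries alone, H2ax (-0.17, adjusted p = 0.195), Mdc1 (-0.18, adjusted p = 0.109) and Rnf168 (0.21, adjusted p = 0.0545) did not pass. Trp53bp1 stood at -0.01 (adjusted p = 0.785). Of the 7 members, 3 were called higher and 3 lower in gH2AX, where 30.1% of all bins were higher and 30.1% were lower.

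In total H2AX the Brca1 bin held 485 and 481 CPM in KO cells against 351 and 354 CPM in WT cells, a log2 difference of 0.45 (SE 0.047, adjusted p = 3.81e-05). Rnf168, with 504 and 501 CPM in KO cells and 434 and 431 CPM in WT cells, was higher by 0.22 (SE 0.0438, adjusted p = 0.00186). Prkdc, with 403 and 395 CPM in KO cells and 353 and 338 CPM in WT cells, was higher by 0.21 (SE 0.0283, adjusted p = 0.000171). Atm, with 286 CPM in each KO library and 315 CPM in each WT library, was lower at -0.14 (SE 0.025, adjusted p = 0.000935). Mdc1 was lower at -0.18 (SE 0.0504, adjusted p = 0.0122), with 508 CPM in each KO library against 566 and 582 CPM in WT cells, a call lost without either KO library (adjusted p = 0.0544 and 0.056) and without the Xray-named WT library (-0.13, adjusted p = 0.115). H2ax stood at -0.15 (adjusted p = 0.0706) and Trp53bp1 at 0.02 (adjusted p = 0.637). Over the members, 3 were called higher and 2 lower, where 30.6% of all bins were higher and 32.6% were lower, so the members' shares were near those of the genome. In the gH2AX libraries the Xray-named one was above the NT-named one for each of the 7 members, in KO and in WT cells. The share of all bins with this order was not counted. Over all bins the difference between these 2 libraries was correlated between KO and WT cells (r = 0.959).

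**Figure D2:**
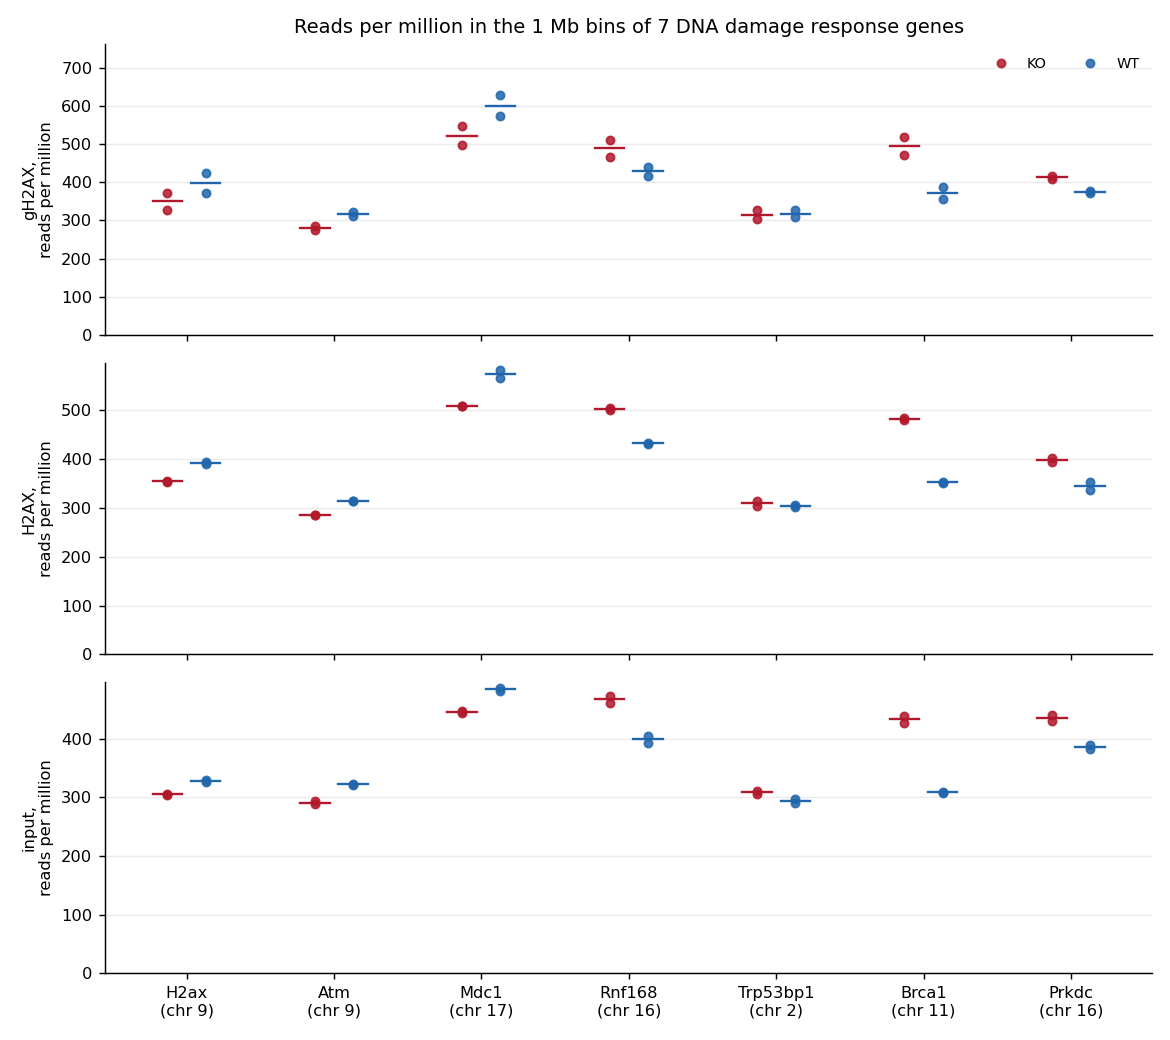
CPM in the bin of each member, in gH2AX, H2AX and input libraries of KO (red, left) and WT (blue, right) cells; each point is 1 library and each line the mean of 2. In all 3 assays the KO points lie above the WT points at Brca1, Rnf168 and Prkdc and below them at Atm and Mdc1; the Mdc1 difference in input did not pass the test.

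The differences between KO and WT cells extended far beyond the members. All 96 tested bins of chromosome 16, Rnf168 and Prkdc included, were on the higher side in KO input, with a median of 0.21 and 92 bins called. Rnf168 stood at place 28 and Prkdc at place 87 of the 96. On chromosome 17 all 92 bins were on the lower side, with a median of -0.16 and 77 called, and the Mdc1 bin stood at place 5. H2ax and Atm lie on chromosome 9 in 1 stretch of 21 bins, 36000001 to 57000000, all on the lower side in KO input with a median of -0.13, while the other bins of the chromosome had a median of 0.26. The Brca1 bin belonged to a stretch of 40 bins on chromosome 11, 67000001 to 107000000, all on the higher side with a median of 0.33, against 0.03 in the other bins. Trp53bp1 lay in a stretch of 17 bins on chromosome 2 with a median of 0.06. In that chromosome 13 of 180 bins were called higher and 9 lower. Single bins near the members broke the pattern in gH2AX. In the bin 4 Mb after that of Mdc1 the log2 difference of KO from WT was 0.70 in gH2AX, -0.20 in H2AX and -0.02 in input. The log2 difference of gH2AX from input in that bin was 4.40 in KO and 3.68 in WT cells.

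**Figure D3:**
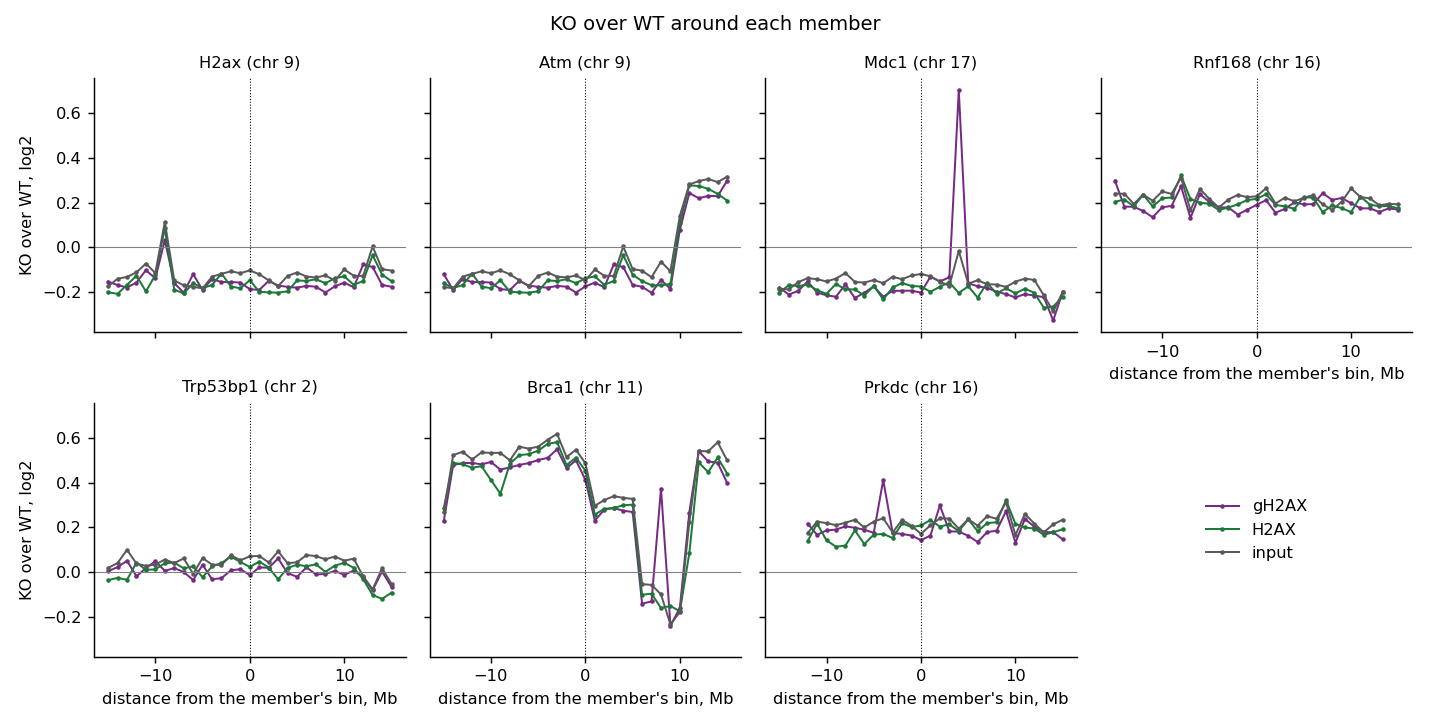
The log2 difference of KO over WT in gH2AX (purple), H2AX (green) and input (grey) for each member's bin at 0 and the bins up to 15 Mb on either side. The 3 assays run together over most bins, with H2ax and Atm inside the lower stretch of chromosome 9, Brca1 inside a higher stretch of chromosome 11, and a single high gH2AX bin 4 Mb after Mdc1.

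Set against input, no member passed the test between KO and WT cells in the fit without blocks. In gH2AX over input the difference of KO from WT was negative for all 7, from -0.08 for H2ax, Trp53bp1 and Mdc1 and -0.07 for Brca1 to -0.04 for Rnf168 and -0.03 for Prkdc and Atm, and every adjusted p was 0.937. Between gH2AX libraries of like column name, the log2 ratio to the mean input was lower in KO cells for all 7 members. For H2ax it was 0.10 in KO against 0.18 in WT cells in NT-named libraries, and 0.29 against 0.37 in Xray-named ones. How many of all bins had this order was not counted. The sign of some values changed with the scaling and when 1 library was left out, which leaves unlike column names in KO and WT cells. Without the NT-named KO gH2AX library H2ax stood at 0.0079, Rnf168 at 0.03 and Brca1 at -0.0058, and without the Xray-named WT gH2AX library H2ax stood at 0.02, Rnf168 at 0.0071 and Atm at 0.0018. Without the Xray-named KO gH2AX library H2ax was at -0.16, and without the NT-named WT gH2AX library at -0.18. Without the Xray-named WT input Rnf168 was at 0.0016 and Prkdc at 0.0020. With DESeq2's size factors the values of Atm and Prkdc were positive, at 0.0042 and 0.0023. The standard errors of the fit without blocks ran from 0.0353 for Atm to 0.0909 for H2ax. The median over all bins was -0.03. On its own chromosome the Mdc1 bin had the lowest value of 92, H2ax stood at place 120 of 123 and Trp53bp1 at place 174 of 180. In H2AX over input the differences ran from -0.06 for Mdc1 to 0.04 for Prkdc, with every adjusted p at 1.00. Of the 7 members 0 were called in either direction. In gH2AX over input 0% of all bins were called higher and 0.0387% lower, which is 1 bin, with 29 bins at an unadjusted p under 0.05. In H2AX over input 0% were called in each direction, with 128 bins at an unadjusted p under 0.05. DESeq2 called 6 bins in gH2AX over input and 12 in H2AX over input. The KO and WT libraries of like column name deviated together within each assay (r = 0.959 in gH2AX, 0.681 in H2AX and 0.486 in input), although the labels do not say that the names pair them. Where they were taken as blocks within each assay, H2ax was called lower in gH2AX over input (-0.08, SE 0.0054, adjusted p = 0.0225) and in H2AX over input (-0.04, SE 0.0061, adjusted p = 0.0337), and Trp53bp1 in gH2AX over input (-0.08, SE 0.0135, adjusted p = 0.0336). Of all bins, 1.59% were then higher and 12% lower in gH2AX over input, and 0.775% higher and 9.95% lower in H2AX over input. With these blocks H2ax (-0.10, adjusted p = 4.67e-05), Mdc1 (-0.12, adjusted p = 0.029) and Trp53bp1 (0.07, adjusted p = 0.00214) also passed in input, where 38.5% of bins were higher and 41.8% lower, and H2ax passed in H2AX (-0.15, adjusted p = 4.43e-05), where 33.3% were higher and 48.3% lower.

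The clone table has no labelled input sample, so gH2AX was compared with H2AX of the same clones. In KO clones carrying SIRT7-WT, in HY clones and in KO clones, the Mdc1, Rnf168 and Brca1 bins were lower in gH2AX than in H2AX. In KO clones the Mdc1 bin held 554 and 431 CPM in gH2AX of replicates 1 and 2, against 871 and 869 CPM in H2AX, a log2 difference of -0.82 (SE 0.142, adjusted p = 0.000513). The Brca1 bin of KO clones held 383 and 363 CPM in gH2AX against 567 and 685 CPM in H2AX, a difference of -0.75 (SE 0.127, adjusted p = 0.000479). Rnf168 held 439.98 and 436 CPM in gH2AX of KO clones against 638 and 714 CPM in H2AX, a difference of -0.63 (SE 0.111, adjusted p = 0.000536). The groups of these 3 bins did not overlap, and the share of all bins with such groups was not counted. H2ax in KO clones held 465 and 254 CPM in gH2AX against 758 and 492 CPM in H2AX, a difference of -0.80 (SE 0.309, adjusted p = 0.0364), and Trp53bp1 differed by -0.43 (SE 0.171, adjusted p = 0.0395). Both calls were lost without H2AX replicate 1 (-0.45, adjusted p = 0.29 for H2ax; -0.28, adjusted p = 0.264 for Trp53bp1), without gH2AX replicate 2 (-0.38, adjusted p = 0.372; -0.20, adjusted p = 0.441) and with the autosomal total (-0.63, adjusted p = 0.114; -0.26, adjusted p = 0.226), and that of H2ax with DESeq2 (-0.81, adjusted p = 0.108). Atm stood at -0.13 (adjusted p = 0.688) and Prkdc at 0.04 (adjusted p = 0.737). Of the 7, 0 were called higher and 5 lower, where 32.6% of all bins were higher and 29.9% were lower.

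In KO clones carrying SIRT7-WT the difference of gH2AX from H2AX was -0.65 for Mdc1 (SE 0.142, adjusted p = 0.00262), -0.50 for Brca1 (SE 0.126, adjusted p = 0.00499) and -0.46 for Rnf168 (SE 0.111, adjusted p = 0.00405). The calls of Mdc1 and Brca1 were lost without gH2AX replicate 2 of these clones (-0.49, adjusted p = 0.0569, and -0.47, adjusted p = 0.0512). H2ax stood at -0.60 (adjusted p = 0.11), and leaving out 1 library, which leaves unequal clones in the 2 assays, moved it both ways. It was -0.19 without H2AX replicate 1 (adjusted p = 0.66) and -0.21 without gH2AX replicate 2 (adjusted p = 0.638), but -0.92 without H2AX replicate 2 (adjusted p = 0.0354) and -1.06 without gH2AX replicate 1 (adjusted p = 0.0149). Trp53bp1 stood at -0.28 (adjusted p = 0.177). Counted together, 0 were higher and 3 lower, where 30.6% of all bins were higher and 25.1% were lower. In HY clones Mdc1 stood at -0.82 (SE 0.142, adjusted p = 0.000747), Brca1 at -0.73 (SE 0.127, adjusted p = 0.000723), Rnf168 at -0.58 (SE 0.111, adjusted p = 0.00103) and H2ax at -0.82 (SE 0.309, adjusted p = 0.0345), of which the H2ax call was lost without any 1 of the 4 HY libraries (-0.91 to -0.72, adjusted p between 0.0664 and 0.198), with DESeq2 (-0.84, adjusted p = 0.0961) and with the autosomal total (-0.64, adjusted p = 0.109). Trp53bp1 stood at -0.39 (adjusted p = 0.0647), and passed with DESeq2 (-0.41, adjusted p = 0.0259). Of the 7, 0 were higher and 4 lower in HY clones, where 31.6% of all bins were higher and 27.9% were lower. Scaling to the autosomal total moved the median of all bins upwards by 0.13 in KO clones with SIRT7-WT, 0.18 in HY clones and 0.17 in KO clones. The share of calls that were higher was then 70.3% in place of 54.9% in KO clones with SIRT7-WT, 69.4% in place of 53.1% in HY clones and 67.5% in place of 52.2% in KO clones. With that scaling the Atm value turned positive, at 0.09 in KO clones with SIRT7-WT, 0.11 in HY clones and 0.04 in KO clones, and Prkdc in HY clones was called higher (0.30, adjusted p = 0.0237). On chromosome 16 the Rnf168 bin stood at place 86 of 96 in KO clones while the chromosome median was 0.16. In the KO cells of the first table, which was scaled separately, the Mdc1 bin held 496 and 547 CPM in gH2AX against 508 CPM in each H2AX library, so the assays overlapped there.

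**Figure D4:**
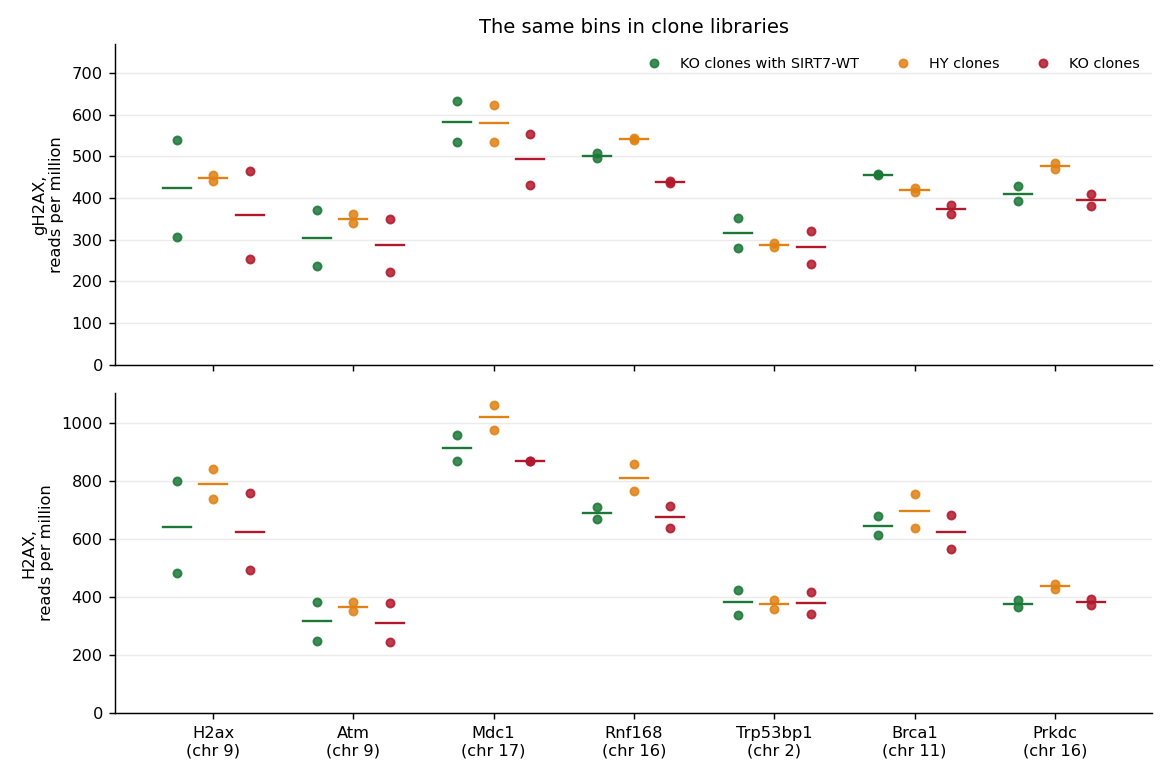
CPM in the bin of each member in gH2AX and H2AX libraries of KO clones with SIRT7-WT (green), HY clones (orange) and KO clones (red); each point is 1 clone library and each line the mean of 2. The H2ax and Atm bins differ between the 2 libraries of the KO clones with and without SIRT7-WT in both assays, and the H2ax, Mdc1, Rnf168 and Brca1 means lie lower in gH2AX than in H2AX.

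Within the KO clones the 2 replicates differed in the chromosome 9 bins. In H2AX the H2ax bin held 802 and 482 CPM in replicates 1 and 2 of KO clones with SIRT7-WT, 738 and 843 CPM in HY clones and 758 and 492 CPM in KO clones. The Atm bin held 384 and 249.8 CPM in KO clones with SIRT7-WT, 353 and 382 CPM in HY clones and 380.2 and 245 CPM in KO clones. In gH2AX the Atm bin held 372 and 236 CPM in KO clones with SIRT7-WT, 341 and 360.4 CPM in HY clones and 349.7 and 223 CPM in KO clones. Replicate 1 was thus above replicate 2 in the KO clones with and without SIRT7-WT, and below it in HY clones. The labels give clones c22 and c9 in both groups, and replicates of like number deviated together in each pair of the 4 KO-clone groups (r between 0.436 and 0.936), so the number was also used as a block within a clone family. With that block Atm passed in KO clones (-0.13, adjusted p = 0.0168). H2ax (-0.61, adjusted p = 8.81e-05), Trp53bp1 (-0.28, adjusted p = 0.000283) and Prkdc (0.12, higher, adjusted p = 0.0188) passed in KO clones with SIRT7-WT, and Trp53bp1 (-0.39, adjusted p = 3.63e-05) and Prkdc (0.12, higher, adjusted p = 0.0154) in HY clones. The same block called 2253 of 2582 bins in KO clones, 2190 in KO clones with SIRT7-WT and 2214 in HY clones. Most bins thus passed, members or not.

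SIRT7-WT in the KO clones gave no called difference at any member. In gH2AX the values were positive for all 7, with 0.29 for Brca1 (SE 0.126), 0.24 for Mdc1 and H2ax (SE 0.142 and 0.308), 0.20 for Rnf168 (SE 0.111), 0.16 for Trp53bp1 (SE 0.171), 0.09 for Atm (SE 0.266) and 0.06 for Prkdc (SE 0.111), and every adjusted p was 0.990. Leaving out 1 library changed the sign of 3 of them, but it leaves unequal clones in the 2 groups if like numbers are like clones. Without replicate 1 of the KO clones with SIRT7-WT H2ax stood at -0.23, Atm at -0.28 and Trp53bp1 at -0.0094. Without replicate 2 of the KO clones they stood at -0.17, -0.24 and -0.07, and without replicate 1 of the KO clones H2ax stood at 0.74. Between gH2AX libraries of like number, CPM was higher with SIRT7-WT in both pairs for each of the 7 members. In the H2ax bin these were 540 against 465 CPM and 307 against 254 CPM. How many of all bins had this order was not counted. The Brca1 bin held 455 and 457 CPM in gH2AX of KO clones with SIRT7-WT against 383 and 363 CPM in KO clones, and the Rnf168 bin 496 and 507 CPM in KO clones with SIRT7-WT against 439.98 and 436 CPM in KO clones. In these 2 bins the groups did not overlap, and the unadjusted p was 0.0379 for Brca1 and 0.0999 for Rnf168. The share of all bins with groups that did not overlap was not counted. In H2AX the values ran from -0.02 for Prkdc to 0.07 for Mdc1, with every adjusted p at 1.00, and without 1 library that of H2ax lay between -0.37 and 0.38. The difference in gH2AX over H2AX ran from 0.07 for Atm to 0.24 for Brca1 (SE 0.178), with every adjusted p at 1.00, and without 1 library that of H2ax lay between -0.27 and 0.70. Of the 7 members 0 were called in each of the 3 comparisons, also with the clone number as a block. Of all bins, 0.0387% were called higher and 0% lower in gH2AX, and 0% in each direction in H2AX and in gH2AX over H2AX. The unadjusted p was under 0.05 in 23 bins for gH2AX, 0 for H2AX and 1 for gH2AX over H2AX.

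HY clones, which are other clones than the KO ones, were then set against KO clones. In gH2AX the Rnf168 bin held 539 and 544 CPM in HY clones against 439.98 and 436 CPM in KO clones, a difference of 0.31 (SE 0.111, adjusted p = 0.256). Prkdc held 469 and 483 CPM in HY clones against 381 and 408 CPM in KO clones, a difference of 0.27 (SE 0.111, adjusted p = 0.354). In both bins the HY libraries were above the KO ones, an order that was not counted over all bins. The other values in gH2AX ran from 0.03 for Trp53bp1 to 0.32 for H2ax, and 3 of them crossed 0 without 1 library. Without replicate 2 of the KO clones H2ax stood at -0.09, Atm at -0.03 and Trp53bp1 at -0.20, and without replicate 1 of the KO clones at 0.82, 0.65 and 0.25. In H2AX they ran from -0.02 for Trp53bp1 to 0.34 for H2ax, with 0.26 for Rnf168 (SE 0.111, adjusted p = 0.386), and without 1 library H2ax lay between 0.06 and 0.68 and Atm between -0.05 and 0.59. In gH2AX over H2AX they ran from -0.02 for H2ax to 0.08 for Prkdc, with every adjusted p at 1.00, and without 1 library H2ax lay between -0.43 and 0.48. Of the 7 members 0 were called. Of all bins, 0% were called higher and 0.0387% lower in H2AX and in gH2AX, and 0% in each direction in gH2AX over H2AX, where 5 bins had an unadjusted p under 0.05. With the replicate number as a block over all clones, Rnf168 passed in gH2AX (0.31, adjusted p = 0.0298) and H2AX (0.26, adjusted p = 0.0493) and Prkdc in gH2AX (0.27, adjusted p = 0.0226), but nothing in the labels pairs HY with KO clones. Over all bins that block called 243 in gH2AX and 261 in H2AX.

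Reads assigned to the parental genomes were described for WT cells from the second table. The deposited names genome1 and genome2 do not say which is C57BL6 and which CAST. Over the autosomes genome1 held 54% to 54.2% of the assigned reads. In the input libraries of WT cells the H2ax bin held 54.2% and 53.9% genome1 reads, Atm 58.4% and 58.3%, Mdc1 55.8% and 56.2%, and Brca1 58.3% and 58.6%. The bins of chromosome 16 were far below, with 30.9% and 31% for Rnf168 and 31.2% and 31.4% for Prkdc, and so was the chromosome as a whole with a median of 30.8%. Trp53bp1 had the lowest share, 26.2% and 26.4%, although the median of chromosome 2 was 59.6% and 59.8%. Its 95% Wilson interval was 25.6% to 26.8% in the first of these libraries, and such intervals cover counting error only. Genome1 over genome2 in input gave a log2 difference of -1.70 for Trp53bp1 (SE 0.0318, adjusted p = 2.61e-65), at place 173 of 180 tested bins of its chromosome, in a stretch of 5 bins from 118000001 to 123000000 with a median of -2.26. Rnf168 stood at -1.37 (SE 0.0251) and Prkdc at -1.35 (SE 0.0209), beside a median of -1.38 over the 96 bins of chromosome 16, all called lower. Atm was higher in genome1 by 0.27, Mdc1 by 0.14 and Brca1 by 0.28, while H2ax stood at 0.02 (adjusted p = 0.273), and at -0.02 with DESeq2's size factors. Among the 7 genes, 3 were higher and 3 lower, where 49.2% of 2577 tested bins were higher and 48.8% were lower. Between 24.5% of reads, in the Atm bin, and 63%, in the Mdc1 bin, were left unassigned by the authors. Some reads of the total were in none of the genome1, genome2 and unassigned counts, most of them in the Trp53bp1 bin. There they were 5037 of 47003 and 9724 of 74592 input reads, against 945 of 50524 and 1863 of 81319 in the Atm bin. How these reads bear on the parental shares was not tested.

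**Figure D5:**
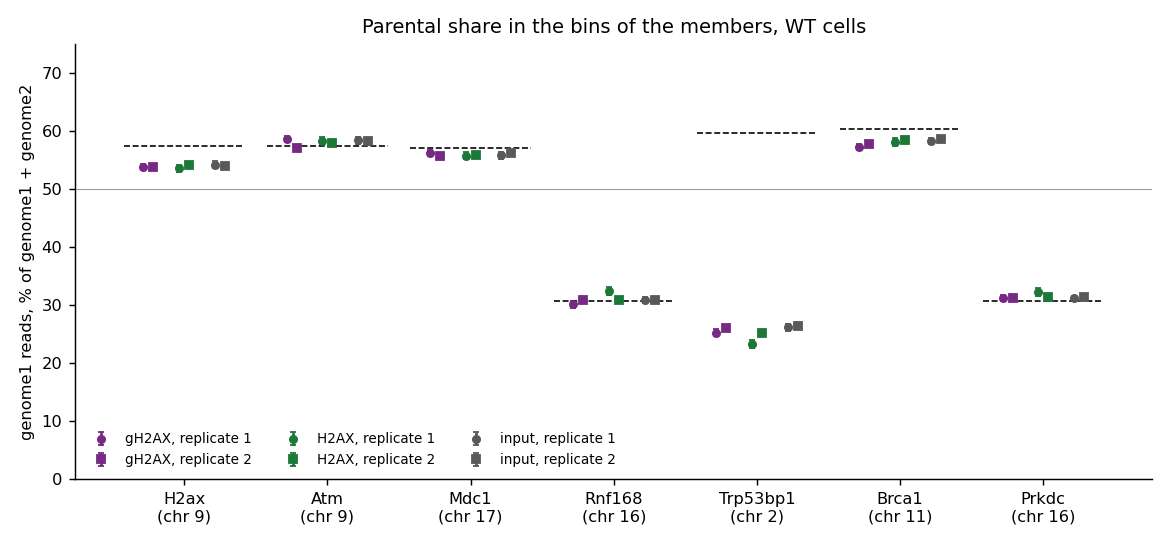
Percent of parentally assigned reads that were assigned to genome1 in the bin of each member, in gH2AX (purple), H2AX (green) and input (grey) libraries of WT replicates 1 (circles) and 2 (squares), with 95% Wilson intervals; dashed lines are chromosome medians. The Trp53bp1 bin lies far below the median of chromosome 2, and Rnf168 and Prkdc lie near the low median of chromosome 16.

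The immunoprecipitated libraries followed the parental share of input. In gH2AX of WT cells genome1 held 53.8% of assigned reads in each replicate in the H2ax bin, 58.6% and 57.1% in Atm, 56.2% and 55.7% in Mdc1, 30.2% and 30.9% in Rnf168, 25.3% and 26% in Trp53bp1, 57.3% and 57.8% in Brca1, and 31.3% and 31.2% in Prkdc. The difference between the genomes in gH2AX over input ran from -0.07 for Brca1 (SE 0.031, adjusted p = 0.256) to -0.02 for Prkdc (SE 0.0297, adjusted p = 0.854), and 0 of the 7 members were called, where 1.09% of bins were higher and 1.44% lower. With DESeq2's size factors the values of Mdc1 and Prkdc were 0.01 each. In H2AX over input the Trp53bp1 bin was lower in genome1, at -0.18 (SE 0.0458, adjusted p = 0.00528), with 23.3% and 25.2% genome1 reads in H2AX against 26.2% and 26.4% in input. Its value was -0.08 (adjusted p = 0.491) without H2AX replicate 1, -0.20 (adjusted p = 0.128) without input replicate 1, -0.17 (adjusted p = 0.240) without input replicate 2 and -0.15 (adjusted p = 0.0577) with DESeq2. The other members ran from -0.04 to 0.02. Of the 7, 0 were higher and 1 lower, where 3.03% of bins were higher and 6.33% lower. The share of calls in favour of genome1 was 43.1% in gH2AX and 32.4% in H2AX over input, and with DESeq2's size factors it was 70.6% in gH2AX and 61.9% in H2AX over input.

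Other genes of the same response, 44 in 44 bins, were read from a list of sensors and kinases, ubiquitin and chromatin steps, homologous recombination and end joining. The list was chosen with earlier results of these data known. Its bins were compared with all bins and not with bins of like gene number. Over all bins gene number and gH2AX over input had a Spearman rho of 0.62 in KO and 0.66 in WT cells. The part of gene number in the values below was not tested. In gH2AX over input 23 were higher and 6 lower in KO cells, with a median log2 difference of 0.11, and 29 were higher and 3 lower in WT cells, with a median of 0.15. Over all bins 25.3% were higher and 36.3% lower in KO cells, with a median of -0.02, and 34.6% higher and 35.3% lower in WT cells, with a median of 0.00044. Sirt6, which encodes another sirtuin, had the largest called value, 0.30 in KO and 0.40 in WT cells, and Rnf8, the ubiquitin ligase that acts between MDC1 and RNF168, stood at 0.30 in KO and 0.34 in WT cells. Xrcc4, an end-joining factor, was lower in KO cells at -0.26. In H2AX over input 26 were higher and 6 lower in KO and likewise in WT cells, with a median of 0.10 in KO and 0.13 in WT cells. Over all bins 21.4% were higher and 28.2% lower in KO cells, with a median of -0.03, and 30.5% higher and 25.9% lower in WT cells, with a median of -0.00044. Among these genes stood Mad2l2, which limits end resection, at 0.31 in KO and 0.35 in WT cells, and Kat5, an acetyltransferase of the response, at 0.26 in KO and 0.30 in WT cells.

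Between KO and WT cells, 16 of the 44 were higher and 10 lower in gH2AX, 15 higher and 12 lower in H2AX, and 16 higher and 9 lower in input. Of all bins, 30.1% were higher and 30.1% lower in gH2AX, 30.6% higher and 32.6% lower in H2AX, and 32.1% higher and 25.4% lower in input. Sirt1 was higher in KO cells by 0.37 in gH2AX, 0.40 in H2AX and 0.44 in input, and Sirt6, on the same chromosome 10, by 0.36 in gH2AX, 0.40 in H2AX and 0.45 in input. Fancd2 (-0.30) and Rad52 (-0.27), both repair genes on chromosome 6, were lower in gH2AX. With each assay set against input, 0 of 44 were called between KO and WT cells without blocks, and with blocks by column name within each assay 0 were higher and 10 lower in gH2AX and 0 higher and 3 lower in H2AX. Those blocks called 352 of all 2582 bins in gH2AX over input and 277 in H2AX over input, in either direction. In gH2AX over H2AX, 2 were higher and 23 lower in KO clones with SIRT7-WT, with a median of -0.40 against 0.02 over all bins. In HY clones 2 were higher and 27 lower, with a median of -0.47 against 0.01, and in KO clones 2 were higher and 28 lower, with a median of -0.48 against -0.0029. Over all bins 30.6% were higher and 25.1% lower in KO clones with SIRT7-WT. These shares were 31.6% and 27.9% in HY clones and 32.6% and 29.9% in KO clones. Sirt6 stood at -0.76 in KO clones with SIRT7-WT, -1.03 in HY clones and -1.01 in KO clones. In the comparisons between clone groups 0 of 44 were called. In the parental comparison of WT cells, only Setd2 of the 44 was called in gH2AX over input, at -0.13 (adjusted p = 0.00255). There 1.09% of all bins were higher and 1.44% lower.

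Over the 12 libraries of the KO and WT table, the bin whose log2 CPM was most like that of each member, outside the 5 bins on either side, was found as a description. For H2ax it was the bin 46000001 to 47000000 of chromosome 17 (Pearson r = 0.996), for Atm 64000001 to 65000000 of chromosome 17 (r = 0.993) and for Mdc1 29000001 to 30000000 of the same chromosome (r = 0.997). For Rnf168 it was 80000001 to 81000000 of chromosome 11 (r = 0.994), for Brca1 128000001 to 129000000 of chromosome 10 (r = 0.997) and for Prkdc 17000001 to 18000000 of chromosome 10 (r = 0.992). Trp53bp1 had the lowest of these correlations, with 71000001 to 72000000 of chromosome 2 (r = 0.963), and 2 bins above 0.95, where the others had 39 to 133. The 12 points share genotype and assay differences and the libraries' scaling.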

How the data were processed

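The authors deposited raw read counts per 1 Mb bin, unscaled, for WT and KO cells and, in a second table, for clones and WT cells again. Per the submitters' processing notes the build was mm10, and the tools named include Bowtie2 2.2.9, Trimmomatic 0.36, SAMtools 0.1.19 and deepTools 2.4.2. Settings and the handling of duplicate reads: not given in the sources used here. Gene positions came from RefSeq annotation of GRCm38, the same assembly.

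Columns were matched to samples by name. Of 144 value columns, 48 were used. The other 96 were parental columns whose library matched only a group, and clone inputs that match no labelled sample.

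Tests covered chromosomes 1 to 19 and X, where a bin averaged 100 counts or more, and were run with edgeR 4.0.16 (R 4.3.3), by the quasi-likelihood F test with TMM factors, a coefficient per group and 12 libraries per fit. Each table was fitted on its own. The parental fit used genome1 and genome2 counts of 6 WT libraries, each library as a block. The step was tested on simulated data with 50 bins changed at each fold. The comparison of gH2AX with H2AX in KO clones recovered 2% of them at 1.1-fold, 8% at 1.25-fold and 66% at 1.5-fold. For gH2AX of KO against WT cells it was 44% at 1.1-fold and 100% at 1.25-fold. Unchanged bins made up 10.2% of the calls in the first and 8.51% in the second. No comparison between clone groups was simulated, nor KO against WT cells over input. For Mdc1 the SE of gH2AX over H2AX was 0.2 between KO clones with SIRT7-WT and KO clones, against 0.142 within KO clones. Differences of 1.25-fold or less between clone groups, and larger ones too, could thus easily be missed. With 2 libraries against 2, no permutation test was run. The fit shares 1 spread over assays, although the 2 libraries of a group differed over bins with an SD of 0.11 (KO) and 0.101 (WT) in gH2AX log2 values, 0.0238 and 0.0462 in H2AX, and 0.0251 and 0.0236 in input. CPM used TMM-adjusted library sizes.

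Clone replicate numbers were taken to pair the KO clones with and without SIRT7-WT, which the labels call by the same clones. The labels do not say which replicate number is which clone. The members and gene lists were chosen with earlier results of these data known. All 7 members are named in every comparison, and at most 4 other pathway genes per comparison, those with the largest called difference. Alternatives were DESeq2 1.42.0, its size factors, the autosomal total, other count minimums, replicate blocks, compared groups only and leaving out each library.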

Additional observations from a re-analysis of the deposited data

Results flagged for a closer look

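The Trp53bp1 bin differed between the parental genomes of WT cells in H2AX over input, by a test of the difference itself. The log2 difference of genome1 from genome2 was -0.18 (edgeR's quasi-likelihood test, adjusted p = 0.00528), with 23.3% and 25.2% genome1 reads in H2AX against 26.2% and 26.4% in input. The H2AX shares were below both input shares, but the call was lost under several alternatives, where the value was -0.08 (adjusted p = 0.491) without H2AX replicate 1, -0.20 (adjusted p = 0.128) without input replicate 1, -0.17 (adjusted p = 0.240) without input replicate 2 and -0.15 (adjusted p = 0.0577) with DESeq2. In this bin 3852 of 28495 and 7166 of 55585 H2AX reads were in none of the genome1, genome2 and unassigned counts. In input these were 5037 of 47003 and 9724 of 74592 reads. No group had 4 or more samples, so outlying samples were not tested for.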

How the results depend on the processing

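Values here are numbers of called bins over all tested bins, with the main value in brackets. With the compared groups only, gH2AX over input in KO cells (1589) gave 917, H2AX over input in KO cells (1280) 2071, and gH2AX of KO against WT (1553) 919. Without 1 library these ran from 715 to 1856, from 579 to 832 and from 1471 to 1597, and H2AX over input in WT cells (1455) from 818 to 1226. H2AX over input of KO against WT (0) gave 12 with DESeq2, 277 with the replicate block by column name within each assay, 45 with the compared groups only and 0 without any 1 library. The same for gH2AX over input (1) gave 4 with the autosomal total, 6 with DESeq2, 2 with the replicate block, 352 with the block within each assay, 0 with the compared groups only and 0 to 4 without 1 library. Libraries of like column name, NT or Xray, deviated together between KO and WT cells of the same assay (r from 0.486 to 0.959), whereas r ran from -0.526 to 0.472 across assays. With the simple replicate block over all assays the only member calls to change were H2ax in H2AX (-0.15, adjusted p = 0.0439) and Mdc1 in input (-0.12, adjusted p = 0.0412), both lower in KO than in WT cells.

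In clones, gH2AX over H2AX with SIRT7-WT (1438) gave 2190 with the replicate block within clone families and 872 to 1204 without 1 library. For KO clones with SIRT7-WT against KO clones, gH2AX (1) gave 0 with either replicate block and with the compared groups only, and 0 to 1 without 1 library, and gH2AX over H2AX (0) gave 0 to 1. For HY against KO clones, H2AX (1) gave 14 with the autosomal total, 157 with DESeq2, 261 with the replicate block, 129 with the compared groups only and 0 to 64 without 1 library. Likewise gH2AX (1) gave 133 with DESeq2, 243 with the replicate block, 0 with the compared groups only and 0 to 66 without 1 library, and gH2AX over H2AX (0) gave 0 to 3. In the parental comparison, gH2AX over input (65) gave 19 to 60 and H2AX over input (241) gave 47 to 339 without 1 library. The cause of these shifts was not tested, and fits without a library assume that the lone library varies like the others. No called member value changed sign under any alternative run. The block fits within assays and within clone families were chosen after seeing the data.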
